A study of Homo sapiens with 24 samples.

Results

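H3K27me3 was compared between untreated siControl PANC-1 cells and siPHF13+TGFβ PANC-1 cells. The lists were chosen by their labels and not by their values: all broad peak lists of H3K27me3 labelled siControl or siPHF13_TGFb, which are 4 of the 24 samples of the series, with 2 libraries per group. PANC-1 is an established line from a human pancreatic ductal carcinoma. Chromatin immunoprecipitation and sequencing (ChIP-seq) of histone marks was carried out 48 h after siRNA transfection and treatment. siControl cells received a control siRNA and no TGFβ. siPHF13+TGFβ cells received an siRNA against PHF13 and TGFβ at 10 ng/ml for 48 h. The groups therefore differ in both the siRNA and the TGFβ treatment, and the effects of the knockdown and of TGFβ cannot be told apart in this comparison. The 2 siControl+TGFβ libraries, which received the control siRNA and the same TGFβ treatment, are given beside them as values. An siRNA knockdown lowers a transcript transiently without deleting the gene. All libraries come from a single cell line, and nothing in the sources used here says that the libraries of a group came from separate cultures, so the p-values measure only the spread between these libraries.

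H3K27me3, trimethylation of lysine 27 of histone H3, is written by the Polycomb repressive complex PRC2 through its catalytic subunit EZH2. It lies over the CpG-rich promoters of developmental regulators that a cell keeps silent, and over broad silent domains. Promoters that carry it together with H3K4me3, the mark of active or poised promoters, are called poised or bivalent. PHF13 is a PHD finger protein that reads methylated lysine 4 of histone H3 and has been described to bind EZH2. TGFβ induces epithelial-to-mesenchymal transition, in which epithelial genes fall and mesenchymal genes rise.

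The group names are those of the labels. Inside the lists labelled siPHF13+TGFβ the peaks are named with the abbreviation NCT, which the study uses for siControl+TGFβ, and inside those labelled siControl+TGFβ with 3AT. Where the number of peaks in a list equals a number in the quality table of the study, the condition given there is that of the label, and the labels were kept. This check does not cover siControl replicate 1 and siPHF13+TGFβ replicate 1, whose deposited lists are shorter than the numbers of the study. The ductal keratin genes KRT8, KRT18 and KRT19 had an H3K4me3 peak within 2.5 kb of the transcription start site (TSS) in all 6 H3K4me3 libraries, whereas KRT7 had one in 0 of 6. PTPRC and CD3E, markers of leukocytes, PRSS1 and CPA1, of acinar cells, and INS and GCG, of islet cells, had an H3K4me3 peak in 0 of 6 libraries. H3K27me3 was absent from the promoters of PHF13 and EZH2 in all 6 H3K27me3 lists, with 0 bp covered, and since an siRNA acts on the transcript this does not measure the depletion.

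Sequences are shown for promoters covered in every library and for stretches that peaks of a single compared group covered, which lie at different distances from the TSS. The 200 bases before the TSS of 3 promoters that were fully covered by a peak in all 6 lists are shown first: WNT1, a secreted WNT ligand (chr12:49371905-49372104, plus strand), NEUROG3, the transcription factor of endocrine progenitors of the pancreas (chr10:71333179-71333378, minus strand), and ROBO3, a receptor of axon guidance (chr11:124735128-124735327, plus strand). Then follow PRPF19, a subunit of the pre-mRNA splicing machinery, before its TSS (chr11:60674058-60674257, minus strand), where the peaks covered 0 bp in all 6 lists, and the middle of the H3K27me3 peaks that both siControl lists and neither siPHF13+TGFβ list held near PRPF19 (chr11:60675993-60676192), TBRG4, a mitochondrial RNA-binding protein (chr7:45152901-45153100, minus strand), and KMT5B, a methyltransferase of histone H4 (chr11:67982789-67982988, minus strand). The last is the middle of the stretch that both siPHF13+TGFβ lists and neither siControl list covered near CENPW, a centromere protein (chr6:126658775-126658974, plus strand). Each is read 5′ to 3′ on the strand of its gene from GRCh37, whose chromosome sequences are those of hg19, with every CpG in capitals. None of these stretches overlaps an annotated exon. The stretch near PRPF19 lies inside the noncoding gene PRPF19-DT. That of NEUROG3 overlaps the noncoding gene ENSG00000236154, and that near CENPW overlaps the transcribed pseudogene ENSG00000286215.
WNT1 before the TSS: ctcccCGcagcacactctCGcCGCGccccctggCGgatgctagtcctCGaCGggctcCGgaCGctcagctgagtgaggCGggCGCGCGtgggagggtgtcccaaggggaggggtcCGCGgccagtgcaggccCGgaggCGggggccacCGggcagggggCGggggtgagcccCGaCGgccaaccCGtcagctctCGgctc
NEUROG3 before the TSS: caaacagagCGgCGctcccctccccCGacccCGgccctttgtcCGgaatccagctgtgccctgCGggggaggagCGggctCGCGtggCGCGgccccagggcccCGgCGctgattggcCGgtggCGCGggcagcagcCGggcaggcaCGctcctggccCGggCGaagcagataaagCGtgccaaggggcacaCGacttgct
ROBO3 before the TSS: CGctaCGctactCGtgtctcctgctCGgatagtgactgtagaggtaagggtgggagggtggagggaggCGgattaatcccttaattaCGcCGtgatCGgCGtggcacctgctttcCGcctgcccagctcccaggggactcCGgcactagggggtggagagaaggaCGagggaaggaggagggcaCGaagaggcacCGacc
PRPF19 before the TSS: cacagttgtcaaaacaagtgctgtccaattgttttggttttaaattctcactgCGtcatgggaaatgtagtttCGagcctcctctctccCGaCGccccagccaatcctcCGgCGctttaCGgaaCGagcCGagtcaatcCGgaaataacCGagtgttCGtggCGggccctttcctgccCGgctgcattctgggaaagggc
PRPF19 upstream peak: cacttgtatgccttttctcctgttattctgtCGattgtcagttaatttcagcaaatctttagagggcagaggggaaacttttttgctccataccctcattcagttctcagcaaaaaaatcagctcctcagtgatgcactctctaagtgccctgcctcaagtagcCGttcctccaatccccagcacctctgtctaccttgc
TBRG4 upstream peak: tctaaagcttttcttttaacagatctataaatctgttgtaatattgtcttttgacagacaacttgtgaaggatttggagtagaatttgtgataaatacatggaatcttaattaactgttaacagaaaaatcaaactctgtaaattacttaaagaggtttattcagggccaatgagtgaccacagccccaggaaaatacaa
KMT5B upstream peak: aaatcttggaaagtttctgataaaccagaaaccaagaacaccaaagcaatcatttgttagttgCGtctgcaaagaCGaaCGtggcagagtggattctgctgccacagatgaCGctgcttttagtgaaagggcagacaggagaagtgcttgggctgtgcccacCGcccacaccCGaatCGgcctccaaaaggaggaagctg
CENPW upstream peak: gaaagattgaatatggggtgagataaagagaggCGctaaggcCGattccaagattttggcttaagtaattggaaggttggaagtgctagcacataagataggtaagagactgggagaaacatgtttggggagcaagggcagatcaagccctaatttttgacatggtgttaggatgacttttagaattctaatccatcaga
The motif searched was CG, which reads the same on both strands. It occurred 23, 22 and 14 times before the TSSs of WNT1, NEUROG3 and ROBO3 and 14 times before that of PRPF19. Over the same 200 bases of all 19748 coding promoters the median was 15, and 96.2% of them held at least 1. In the upstream peaks it occurred 2 times for PRPF19, 0 times for TBRG4, 7 times for KMT5B and 2 times for CENPW. The middles of these 4 stretches lay 2035, 1704, 2125 and 2387 bp upstream of the TSS.

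To determine how much of the genome carried H3K27me3, the length covered by peaks was summed in each list. Peaks covered 105.0 and 292.8 Mb in siControl, 48.6 and 188.8 Mb in siPHF13+TGFβ, and 166.8 and 191.2 Mb in siControl+TGFβ cells. The shortest and the longest list belonged to different groups, and the 2 groups overlapped. The lists held 98211 and 165717 peaks in siControl and 59573 and 107730 peaks in siPHF13+TGFβ cells. The covered length was lower in siPHF13+TGFβ by a mean of -0.87 on the log2 scale, which was smaller than the pooled SD between libraries of a group, 1.23, with p = 0.667 in an exact permutation test (two-sided) over the 4 libraries. With 2 libraries against 2 this test cannot go below 0.333. When every list was trimmed to the number of peaks of the shortest, keeping the strongest, the difference was -0.56 with the same exact permutation p = 0.667. The direction rested on siPHF13+TGFβ replicate 1, since the difference was 0.11 without it, and it was -1.85 without siPHF13+TGFβ replicate 2, -1.61 without siControl replicate 1 and -0.13 without siControl replicate 2. Read counts are not part of these lists, and the read numbers that the study tabulates for its libraries are not used here.

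**Figure D1:**
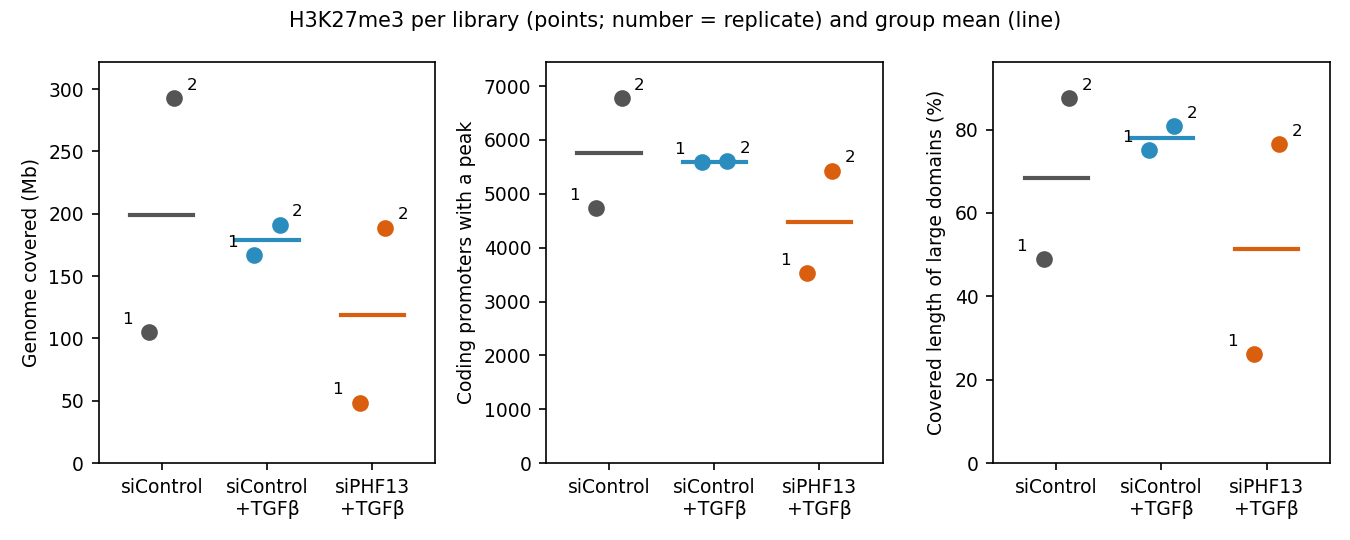
Genome covered by H3K27me3 peaks (Mb), number of coding promoters with a peak, and share of the length of large domains covered (%), for the 6 libraries (points, numbered by replicate) with the group mean (line). Within siControl the libraries reached 105.0 and 292.8 Mb and within siPHF13+TGFβ 48.6 and 188.8 Mb, so the spread within both compared groups was wider than the distance between their means, and the 2 siControl+TGFβ libraries lay between the lowest and the highest of these.

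The width of the peaks differed between libraries of a group. The median peak spanned 625 and 791 bp in siControl and 540 and 843 bp in siPHF13+TGFβ cells. Peaks of at least 10 kb held 5.82 and 21.6% of the covered length in siControl and 3.53 and 18.3% in siPHF13+TGFβ cells (13.9 and 18.5% in siControl+TGFβ). The share of the covered length that lay within 2.5 kb of a coding TSS was 8.62 and 5.89% in siControl and 10.4 and 7.07% in siPHF13+TGFβ cells, a mean difference of 1.51 percentage points against a pooled SD of 2.17 (exact permutation test, p = 0.667). Among the 23 chromosomes the shares of covered length overlapped between the groups on all but chromosomes 1, 2 and 3. Chromosome 1 held 11.68 and 11.52% of the covered length in siControl and 11.988 and 12.005% in siPHF13+TGFβ cells, chromosome 2 held 9.04 and 9.05% against 9.18 and 9.19%, and chromosome 3 held 5.11 and 5.28% against 5.06 and 5.10%. For each of these 3 chromosomes the exact permutation test gave p = 0.333, the smallest it can give, and in siControl+TGFβ the values were 12.17 and 11.95%, 8.68 and 9.02%, and 4.72 and 4.96%.

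Merging the peaks of the 4 lists gave 190207 regions. Of these, 21014 had a peak in all 4 lists, and they spanned 172.9 Mb with a median width of 5832 bp. A further 115295 regions were seen in a single list, and 80474 of those came from siControl replicate 2, the longest list. Peaks in both siPHF13+TGFβ lists and neither siControl list (gained) were found in 551 regions, 0.29% of all, and the reverse (lost) in 7053, or 3.71%. Lost regions were narrow, with a median width of 1065 bp, and gained ones spanned 781 bp. Pairs of 1 library from each group, which share neither siRNA nor treatment, held between 315 and 21220 such regions of their own, and an exact one-sided permutation test of the lost count over the 4 libraries gave p = 0.333, where 0.167 is the smallest it can give. With lists of equal length the gained regions were 1670 of 95278 (1.75%) and the lost ones 2512 (2.64%), where mixed pairs held 771 to 5490. With lists of equal covered length 972 regions (1.58%) were gained and 238 (0.386%) lost. This setting keeps siPHF13+TGFβ replicate 1 whole at 59573 peaks. It keeps 27120 and 7262 peaks of siControl and 9390 of siPHF13+TGFβ replicate 2. Weak peaks of 1 list are thus set against only the strongest peaks of the others. Leaving out a library loosens both conditions, and lost regions then numbered 88651 without siControl replicate 1, 28301 without siControl replicate 2 and 25581 without siPHF13+TGFβ replicate 2, and gained regions 5200, 17914 and 6716 without siControl replicate 2, siPHF13+TGFβ replicate 1 and siPHF13+TGFβ replicate 2.

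Coding promoters were examined next, taking 2.5 kb to each side of a single TSS for each of 19748 protein-coding genes. A peak was present at 4739 and 6778 promoters in siControl, at 3528 and 5428 in siPHF13+TGFβ, and at 5586 and 5605 in siControl+TGFβ cells. The groups overlapped, and the mean difference of -1280.5 promoters had an exact two-sided permutation p = 0.667. It was -2300 and -261 without siControl replicates 1 and 2, and -330.5 and -2230.5 without siPHF13+TGFβ replicates 1 and 2. It turned to 510 with lists of equal covered length, which keep siPHF13+TGFβ replicate 1 whole. Shorter lists were largely contained in longer ones. Of the promoters with a peak in siPHF13+TGFβ replicate 1, 98.5% also had a peak in siControl replicate 2 and 96.1% in siPHF13+TGFβ replicate 2. Of those in siControl replicate 1, 97.1% had a peak in siControl replicate 2 and 92.0% in siPHF13+TGFβ replicate 2. The overlap relative to the union of both sets was 0.76 between siControl replicate 2 and siPHF13+TGFβ replicate 2, and 0.75 between siControl replicate 1 and siPHF13+TGFβ replicate 2. It was 0.67 between the siControl libraries and 0.61 between the siPHF13+TGFβ libraries, and 0.64 and 0.51 between siPHF13+TGFβ replicate 1 and the siControl libraries. By this measure the highest values were thus between libraries of different groups. The measure is capped by the sizes of the sets compared, which differed within both groups. It therefore does not show which libraries were most alike.

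A set of 3195 promoters, 16.2% of all, carried H3K27me3 in all 4 lists, and 3128 of these did so in both siControl+TGFβ lists as well. The median length covered in the 5001 bp window was 2393 and 4255 bp in siControl, 1244 and 3732 bp in siPHF13+TGFβ and 3495 and 3746 bp in siControl+TGFβ cells. The TSS itself was covered at 49.1 and 76.4% of these promoters in siControl and at 28.5 and 69.3% in siPHF13+TGFβ cells (exact permutation test, p = 0.667). In all 6 libraries coverage was lower at the TSS than 400 bp downstream, and in all but siControl+TGFβ replicate 1 it was also lower than 400 bp upstream. In siPHF13+TGFβ replicate 1, for instance, 33.4% of these promoters were covered 400 bp upstream of the TSS, 28.5% at it and 33.9% 400 bp downstream, against 12.6% at 5000 bp upstream. H3K4me3 peaks in all 4 H3K4me3 libraries of the compared groups were present at 1927 of these 3195 promoters (60.3%), and H3K27ac peaks, which mark active promoters, in all 4 H3K27ac libraries at 54 (1.69%). Among the 12664 promoters without H3K27me3 in any of the 4 lists the shares were 78.1% and 27.3%. In the H3K27ac library siPHF13+TGFβ replicate 1, 19.1% of all coding promoters had a peak, against 46.4, 53.9 and 58.1% in the other H3K27ac libraries of the compared groups.

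**Figure D2:**
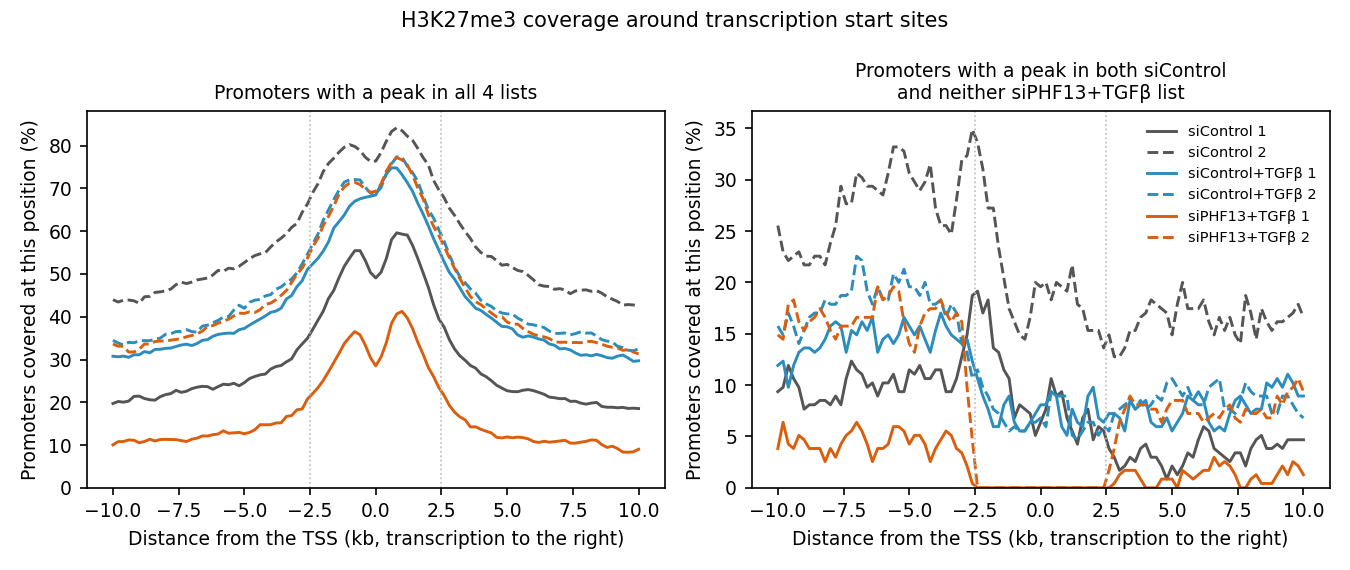
Share of promoters covered by an H3K27me3 peak (%) against distance from the TSS (kb), for the 3195 promoters with a peak in all 4 compared lists (left) and the 235 with a peak in both siControl and neither siPHF13+TGFβ list (right). Lines are the 6 libraries, coloured by group, solid for replicate 1 and dashed for replicate 2, and dotted lines mark the 2.5 kb window. On the left the libraries differ in height, and all but siControl+TGFβ replicate 1 dip at the TSS. On the right the siPHF13+TGFβ lines are at 0 inside the window because the promoters were chosen so, and the siControl lines are highest at the upstream edge of the window.

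Between the groups, 235 coding promoters (1.19% of 19748) had a peak in both siControl lists and neither siPHF13+TGFβ list, and 11 (0.0557%) the reverse. In the mixed pairs the count ran from 1 to 754, and the exact one-sided permutation p of the lost count was 0.333. With lists of equal length 155 promoters (0.785%) were lost and 71 (0.36%) gained, with 30 to 402 in the mixed pairs. With lists of equal covered length, which keep siPHF13+TGFβ replicate 1 whole and trim the others, the balance turned. There 33 promoters (0.167%) were lost and 128 (0.648%) gained, with 34 to 567 in the mixed pairs. Under both the full lists and those of equal length 57 promoters were lost and 7 gained. With the full lists and with lists of equal length, the numbers lost and gained were therefore within the range that mixed pairs of libraries gave. With lists of equal covered length the gained number was within it, and the 33 lost promoters were just below it. Lost promoters numbered 1411 without siControl replicate 1 and 1374 without siPHF13+TGFβ replicate 2, and gained promoters 192, 132 and 48 without siControl replicate 2, siPHF13+TGFβ replicate 1 and siPHF13+TGFβ replicate 2.

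The position of the peak at the lost promoters rests on the same lists that chose them and is a description only. At 10 of the 235 lost promoters the TSS itself was covered in both siControl lists, against 1510 of the 3195 promoters with a peak in all 4 lists and 151 of the 3643 with any other pattern of peaks (mixed). At 163 of the 235 the peaks of both siControl lists shared at least 1 bp, so at the remaining ones the siControl lists covered different parts of the window. The median length covered was 395 and 764 bp in siControl. At 2400 bp upstream of the TSS 19.1 and 33.6% of the lost promoters were covered in siControl, against 6.38 and 19.6% at the TSS. The siControl+TGFβ libraries both had a peak at 73 of the 235, a single library did at 85, and neither did at 77. H3K27ac peaks were present in both siControl libraries at 23.4% of the lost promoters, against 4.85% of promoters with a peak in all 4 lists, 17.9% of mixed promoters and 65.0% of those with none. The ratio of observed to expected CpG within 500 bp of the TSS had a median of 0.47 at lost promoters, 0.69 at promoters with a peak in all 4 lists, 0.56 at mixed promoters and 0.75 at those with none. The shares with a covered TSS, 4.26% of lost and 4.14% of mixed promoters, rest on unlike bases. All lost promoters had a peak in both siControl lists. Of the mixed ones only 1139, with a further peak in siPHF13+TGFβ replicate 2, and 33, with one in replicate 1, did.

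The promoters lost under both settings with the most covered bases were led by CNBD2, which encodes a protein with a cyclic nucleotide-binding domain (TSS at chromosome 20, position 34556512). Its window was covered over 1319 and 2254 bp in siControl, 0 and 0 bp in siPHF13+TGFβ, and 312 and 880 bp in siControl+TGFβ cells. TBKBP1, which binds the kinase TBK1, had 2016 and 1140 bp in siControl, 0 in both siPHF13+TGFβ, and 2315 and 898 bp in siControl+TGFβ libraries. TBRG4 had 1025 and 1187 bp in siControl, 0 in both siPHF13+TGFβ, and 862 and 1145 bp in siControl+TGFβ libraries. In all 3, the siControl+TGFβ libraries had a peak as the siControl libraries did. PRPF19 followed with 1041 and 930 bp in siControl and 689 and 818 bp in siControl+TGFβ cells. The nearest covered base to the PRPF19 TSS in siControl lay 1460 and 1571 bp upstream, and that of TBRG4 1072 and 1314 bp upstream, matching the stretches printed above, which had few CpGs. The other promoters of this group were ODF2L, TSPAN31 (a tetraspanin), KMT5B, KRTAP17-1 (a keratin-associated protein), ING3 (a subunit of the NuA4 acetyltransferase complex) and OR1G1 (an olfactory receptor), with 559 to 934 bp in siControl replicate 1 and 783 to 2470 bp in siControl replicate 2. In the siControl+TGFβ libraries ING3 had 0 bp in both and ODF2L had 0 and 165 bp. There TSPAN31 had 228 and 635 bp, KMT5B 192 and 324 bp, KRTAP17-1 543 and 2911 bp and OR1G1 1188 and 919 bp. H3K4me3 peaks were present in all 6 libraries at TBKBP1, TBRG4, PRPF19, ODF2L, TSPAN31, KMT5B and ING3, and in 0 of 6 at CNBD2, KRTAP17-1 and OR1G1.

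The 7 promoters gained under both settings stood for 6 separate windows, because MTNR1A, a melatonin receptor gene, and the unnamed coding gene ENSG00000272297 share nearly all of theirs (TSSs at 187476721 and 187476482 of chromosome 4). MTNR1A had 646 and 675 bp in siPHF13+TGFβ, 0 in both siControl, and 363 and 1064 bp in siControl+TGFβ libraries. DUSP23, a phosphatase, had 351 and 676 bp in siPHF13+TGFβ and 399 and 310 bp in siControl+TGFβ cells. CENPW had 386 and 228 bp in siPHF13+TGFβ and 0 and 176 bp in siControl+TGFβ cells. GCM2, the transcription factor of the parathyroid gland, had 163 and 194 bp, and BMS1, a ribosome assembly factor, 131 and 474 bp in siPHF13+TGFβ cells. The longest coverage among them was 676 bp, and at MTNR1A the 2 siPHF13+TGFβ lists covered no base in common. At all 7, the nearest base covered in siControl replicate 2 lay outside the window and at most 3805 bp from the TSS.

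**Figure D3:**
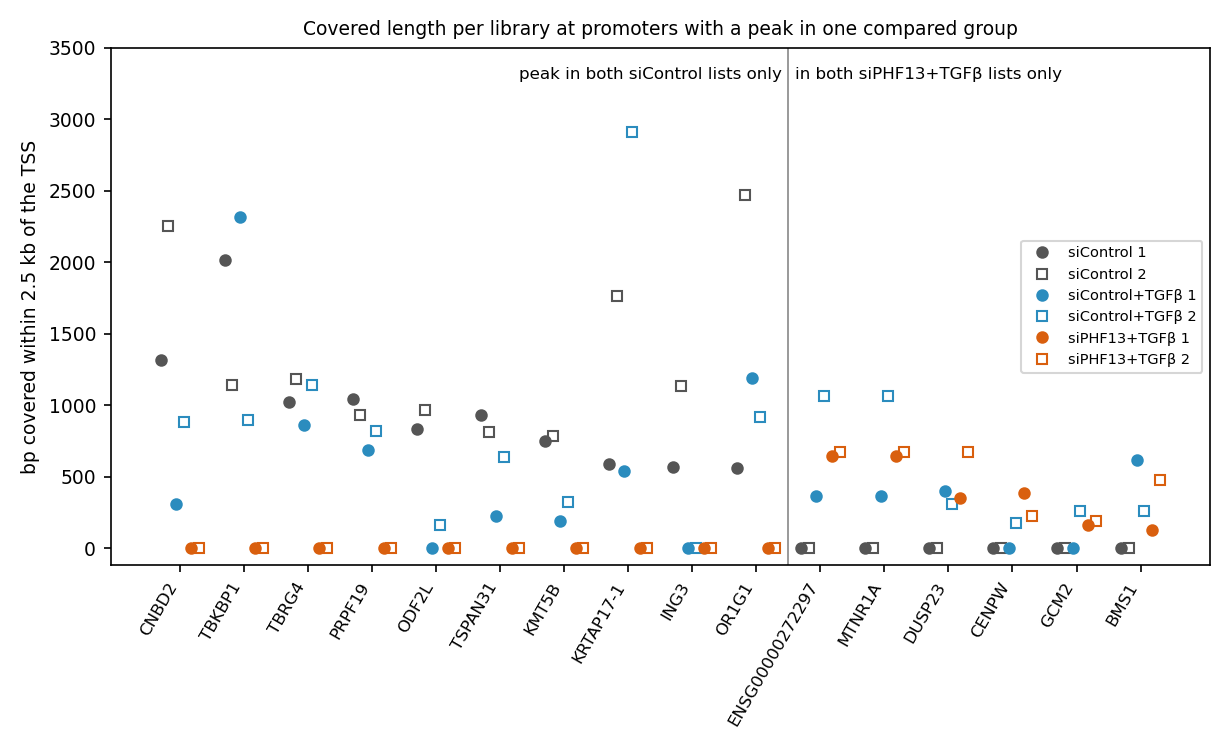
Length covered by H3K27me3 peaks within 2.5 kb of the TSS (bp) for the 10 lost promoters with the most covered bases and 6 of the 7 gained promoters, in each of the 6 libraries (colour by group, filled circles for replicate 1, open squares for replicate 2). The compared groups are separate because the promoters were chosen so. The siControl+TGFβ libraries lie on the siControl side at TBRG4 and PRPF19, at 862 and 1145 bp and at 689 and 818 bp. They lie on the siPHF13+TGFβ side at ING3, at 0 bp in both, and at DUSP23, at 399 and 310 bp.

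To test the covered length itself, log2(bp + 100) was fitted with limma in all 3 H3K27me3 groups after centring each library on its median, so that differences are relative to the library. Of 4820 promoters with a mean of at least 500 bp, 0 (0%) passed an adjusted p of 0.05. At an unadjusted p under 0.05 there were 35 higher (0.726%) and 119 lower (2.47%) in siPHF13+TGFβ, and the smallest adjusted p was 0.907. The lowest p among lower promoters belonged to POTEF, a primate gene of a family with near-identical copies whose reads may not align uniquely, with 1129 and 4064 bp in siControl and 0 and 245 bp in siPHF13+TGFβ cells. Next came ADAM19, a membrane-bound metalloprotease, with 1924 and 2570 bp in siControl, 0 and 209 bp in siPHF13+TGFβ, and 1829 and 1187 bp in siControl+TGFβ libraries. Its fitted difference was -2.91 ± 0.66 (SE) on the log2(bp + 100) scale. SCGB1D2, a secretoglobin, had 1364 and 2378 bp in siControl and 0 and 50 bp in siPHF13+TGFβ cells. In the other direction stood GPHA2, a glycoprotein hormone subunit, with 80 and 0 bp in siControl, 516 and 1425 bp in siPHF13+TGFβ, and 861 and 801 bp in siControl+TGFβ libraries. PRR15L had 0 and 4 bp in siControl and 617 and 506 bp in siPHF13+TGFβ cells, and PPP1R9A, which encodes the actin-binding neurabin, 107 and 867 bp against 917 and 2131 bp. None of these 6 promoters passed the adjusted threshold in the fit across all 4820. With lists trimmed to an equal covered length, siPHF13+TGFβ replicate 1 again kept whole, limma called 18 promoters higher and 1 lower of 2433. Without the filter on low coverage it called 0 higher and 18 lower of 19748, in a fit where most promoters had no variance.

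Groups of genes were then read at the promoters. By the share of promoters marked in all 4 lists, WNT ligand genes (73.7%), potassium channel genes (57.1%) and homeobox genes outside the HOX clusters (52.9%) stood highest among the lists that the study did not choose, against 16.2% of all coding promoters. Among 19 WNT ligand genes, 14 promoters had a peak in all 4 lists, with 14 and 15 marked in siControl and 15 and 14 in siPHF13+TGFβ cells. WNT1 was covered over 3970 and 5001 bp in siControl and 4777 and 5001 bp in siPHF13+TGFβ cells, and WNT3A over 4241 and 5001 bp and 4409 and 5001 bp. Among 121 homeobox genes outside the HOX clusters, 80 and 95 promoters were marked in siControl and 67 and 85 in siPHF13+TGFβ cells, and 64 in all 4 lists. EVX1 and NKX1-2 had their whole window of 5001 bp covered in all 6 lists. NKX3-2, a homeodomain factor of the skeleton, was 1 of the 2 members lost, with 170 and 339 bp in siControl, and 1.19% of all coding promoters were lost. With lists of equal length NKX3-2 was not lost. HOX genes were marked at 13 and 16 of 39 promoters in siControl and at 11 and 14 in siPHF13+TGFβ cells, and HOXA13 and HOXA11 carried the most covered bases. HOXA11 had 3597 and 3457 bp in siControl and 2961 and 2016 bp in siPHF13+TGFβ cells. Forkhead genes were marked at 13 and 19 of 27 promoters in siControl and at 10 and 18 in siPHF13+TGFβ cells, T-box and GATA genes at 9 and 10 of 23 and at 6 and 9. In none of these groups did the libraries of the 2 conditions separate.

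**Figure D4:**
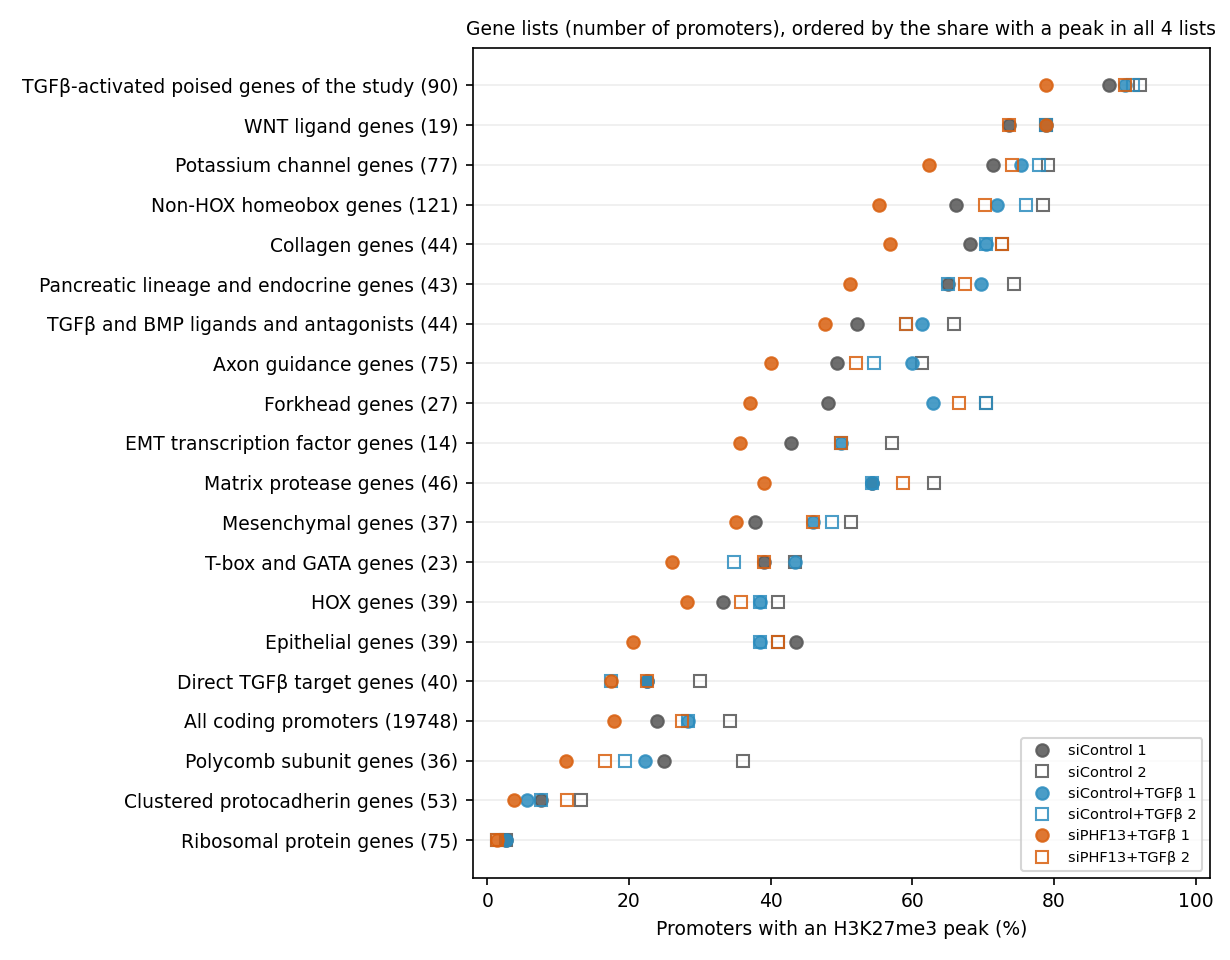
Share of promoters with an H3K27me3 peak (%) in 19 gene lists and over all coding promoters, for each of the 6 libraries (colour by group, filled circles for replicate 1, open squares for replicate 2), with the number of promoters in brackets. The lists run from ribosomal protein genes at 1.33 to 2.67% up to the poised genes of the study at 78.9 to 92.2%, and siPHF13+TGFβ replicate 1 lies lowest or level with the lowest in most of them.

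Signalling and matrix genes were examined for their place in TGFβ responses. Of 44 genes for ligands and antagonists of the TGFβ and BMP families, 23 and 29 were marked in siControl and 21 and 26 in siPHF13+TGFβ cells, 0 were lost and 0 gained. CHRDL2, a BMP antagonist, was covered over 5001 and 5001 bp in siControl and 4912 and 5001 bp in siPHF13+TGFβ cells. GDF7, a BMP ligand, had 4710 and 5001 bp against 3525 and 5001 bp. Collagen genes were marked at 30 and 32 of 44 promoters in siControl and at 25 and 32 in siPHF13+TGFβ cells, and COL2A1, the collagen of cartilage, was covered over at least 4864 bp in every library. Matrix protease genes were marked at 25 and 29 of 46 and at 18 and 27. MMP19 was lost, with 185 and 4787 bp in siControl and 0 bp in both siPHF13+TGFβ libraries, where 1.19% of all coding promoters were lost. Of 40 direct TGFβ target genes 9 and 12 were marked in siControl, 7 and 9 in siPHF13+TGFβ and 9 and 7 in siControl+TGFβ cells, with 0 lost and 0 gained. The highest coverage among them was at COL4A1 and COL4A2, which share a bidirectional promoter. COL4A1 had 3176 and 5001 bp in siControl and 478 and 5001 bp in siPHF13+TGFβ cells, so the spread within siPHF13+TGFβ was larger than the distance between the groups.

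Genes of the epithelial and mesenchymal states showed the same overlap. Of 39 epithelial genes 17 and 16 were marked in siControl, 8 and 16 in siPHF13+TGFβ and 15 and 15 in siControl+TGFβ cells. CDH1, which encodes E-cadherin, had 773 and 834 bp in siControl, 0 and 1246 bp in siPHF13+TGFβ, and 1607 and 1606 bp in siControl+TGFβ libraries. EPCAM, an epithelial adhesion molecule, had 222 and 1998 bp in siControl and 707 and 1621 bp in siPHF13+TGFβ cells. ESRP1, an epithelial splicing regulator, was covered over its whole window in all 4 compared lists, and DSP, which encodes desmoplakin, over 5001 and 5001 bp and 4158 and 5001 bp. Of 37 mesenchymal genes 14 and 19 were marked in siControl and 13 and 17 in siPHF13+TGFβ cells. VIM and CDH2, for vimentin and N-cadherin, had 0 bp in all 6 lists. THBS2, a thrombospondin, had 4309 and 4311 bp in siControl and 2333 and 5001 bp in siPHF13+TGFβ cells. Among 14 genes for transcription factors of the transition, 6 and 8 were marked in siControl and 5 and 7 in siPHF13+TGFβ cells. ZEB2 had 3355 and 5001 bp against 2709 and 4439 bp and SNAI2 2837 and 5001 bp against 1478 and 5001 bp, whereas SNAI1, ZEB1 and TWIST1 had 0 bp in all 6 lists. With full lists, 0 epithelial, 0 mesenchymal and 0 of these transcription factor genes were lost or gained. With lists of equal length EPCAM, LOX and LOXL4 counted as gained and PKP1, TNC and MMP9 as lost. At that setting 0.36% of all coding promoters were gained and 0.785% lost. These calls rested on the trimming. In the full lists siControl replicate 2 covered 1998, 2560 and 3358 bp at EPCAM, LOX and LOXL4. There siPHF13+TGFβ replicate 2 covered 1815, 373 and 2301 bp at PKP1, TNC and MMP9. CDH1, CDH2, VIM, SNAI1, ZEB1, TWIST1 and the members named for lists of equal length were chosen after their values were seen.

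Neuronal and pancreatic genes were marked in like manner. Of 77 potassium channel genes 55 and 61 were marked in siControl and 48 and 57 in siPHF13+TGFβ cells, and KCNK12 had 5001 and 5001 bp against 3816 and 5001 bp. Of 75 axon guidance genes 37 and 46 were marked in siControl and 30 and 39 in siPHF13+TGFβ cells. SEMA4C, a semaphorin, with 152 and 654 bp in siControl, and PLXNB1, a plexin receptor of semaphorins, with 354 and 462 bp, had 0 bp in both siPHF13+TGFβ lists, but had 631 and 870 bp and 177 and 500 bp in siControl+TGFβ cells. These 2 of 75 were lost with the full lists, where 1.19% of all coding promoters were. With lists of equal length SEMA4C was lost and PLXNB1 was not. Of 43 genes of pancreatic lineage and endocrine cells 28 and 32 were marked in siControl and 22 and 29 in siPHF13+TGFβ cells. NEUROG3 had 5001 bp in both siControl and 4187 and 5001 bp in siPHF13+TGFβ libraries, and RFX6, another factor of islet development, 4736 and 5001 bp against 4146 and 4665 bp. Clustered protocadherin genes were marked at 4 and 7 of 53 promoters in siControl and 2 and 6 in siPHF13+TGFβ cells. PCDHB8 was the member marked in all 4 lists, with 1328 and 1992 bp in siControl and 1656 and 2432 bp in siPHF13+TGFβ cells. These genes lie in tandem with similar sequences, so that reads may be shared between neighbours.

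Genes of the Polycomb machinery were marked at 9 and 13 of 36 promoters in siControl, 4 and 6 in siPHF13+TGFβ and 8 and 7 in siControl+TGFβ cells. The siControl counts were both above the siPHF13+TGFβ counts here, as they were among the 19 lists only for these genes and the ribosomal protein genes. Over all coding promoters the counts of the compared groups overlapped. With 2 libraries against 2, interchangeable libraries would give this order with a probability of up to 0.167 for any single list. JARID2, a cofactor of PRC2, had 490 and 798 bp in siControl, 0 in both siPHF13+TGFβ, and 0 and 205 bp in siControl+TGFβ libraries. PHC2, a PRC1 subunit, had 1510 and 473 bp in siControl, 0 in both siPHF13+TGFβ, and 0 in both siControl+TGFβ libraries. These 2 of 36 genes were lost with the full lists, where 1.19% of all coding promoters were, and 0 members with lists of equal length, where 0.785% of all were. At CBX2 and CBX8, chromodomain subunits of PRC1, the mark was present in all 6 lists, with 2517 and 3583 bp in siControl and 425 and 2570 bp in siPHF13+TGFβ cells for CBX2 and 1143 and 1521 bp against 983 and 1545 bp for CBX8.

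The TGFβ-activated poised genes of the study are a list that its authors chose on these samples, so they are not independent evidence. Of 90 promoters, 79 and 83 were marked in siControl, 71 and 81 in siPHF13+TGFβ and 81 and 82 in siControl+TGFβ cells, and 69 in all 4 lists. Of these 69, 61 had an H3K4me3 peak in all 4 H3K4me3 libraries. UNC5B, a netrin receptor, had 4343 and 5001 bp in siControl and 4711 and 5001 bp in siPHF13+TGFβ cells, and PAPLN, an extracellular matrix protein, 2974 and 4873 bp against 2333 and 3669 bp. SLC6A17, a vesicular amino acid transporter, with 807 and 1386 bp in siControl, and FOXN3, a forkhead repressor, with 169 and 307 bp, had 0 bp in both siPHF13+TGFβ lists. These 2 of 90 were lost with the full lists, where 1.19% of all coding promoters were. Neither was lost with lists of equal length. SLC6A17 had 1311 and 2119 bp in siControl+TGFβ cells, and FOXN3 0 in both. Ribosomal protein genes, which every growing cell transcribes, were marked at 2 and 2 of 75 promoters in siControl and 1 and 1 in siPHF13+TGFβ cells. RPL38 was the member marked in every list.

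Over the 19 lists, the median fitted difference of tested members ran from -0.12 for Polycomb genes to 1.29 for the 2 tested protocadherin genes, against 0.20 over all 4820 promoters, and 0 members passed the adjusted threshold. For the WNT ligand genes the median was 0.68 and for the TGFβ and BMP family 0.52. These medians are relative to each library's own median. A window covered in full in all 6 lists, as at EVX1, takes a difference of 0.81 from the centring alone. Without centring, the median of all 4820 promoters was -0.61. Among promoters with a peak in all 4 lists the uncentred median was -0.12 for WNT ligand genes and -0.24 for the TGFβ and BMP family. It was -0.43 over all such coding promoters.

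Large domains were defined on the siControl+TGFβ libraries, which take no part in the contrast: stretches covered in both of their lists, joined over gaps of up to 3 kb and at least 10 kb long. The 4582 domains spanned 107.6 Mb, with a median of 17249 bp and a widest of 398873 bp, and 1221 of them held a coding TSS. Their length was covered to 49.0 and 87.6% in siControl and to 26.1 and 76.5% in siPHF13+TGFβ cells. The domains were rarely empty. In siControl 3 and 0 of them, and in siPHF13+TGFβ 135 and 0, held no peak. The number with at least 50% of the length covered was 1820 and 4550 in siControl and 259 and 4219 in siPHF13+TGFβ cells, so that in siPHF13+TGFβ replicate 1 domains were present as scattered pieces.

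The widest domain held the TSS of RBFOX3, which encodes the neuronal splicing factor NeuN (chromosome 17, 77090185 to 77489057). It was covered to 69.7 and 98.5% in siControl, 37.7 and 93.6% in siPHF13+TGFβ and 96.0 and 93.4% in siControl+TGFβ cells. The domain of TMEM132E (chromosome 17, 32734697 to 33014175) was covered to 53.5 and 92.4% in siControl and 29.4 and 88.1% in siPHF13+TGFβ cells. A domain on chromosome 19 (40031247 to 40300742) with the galectin genes LGALS13, LGALS14, LGALS16 and CLC and the homeobox gene LEUTX was covered almost alike in every library, at 94.9 and 97.6% in siControl and 95.9 and 97.2% in siPHF13+TGFβ cells. Among the 10 widest domains it was the only domain in which siPHF13+TGFβ replicate 1 was not the least covered of the 6 libraries.

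After dividing each library by its median domain, 412 domains (8.99%) were higher in both siPHF13+TGFβ than in both siControl libraries and 468 (10.2%) were lower. With 4 interchangeable libraries each direction would be expected for up to 0.167 of the domains, and both shares were below that. Mixed pairs of libraries are not given for domains. With lists of equal length, which are trimmed from the same lists, 286 and 323 of the 412 and 468 domains kept their direction. Leaving out any of the 4 libraries raised the counts of separate domains to between 1090 and 1869 higher and between 964 and 1861 lower. Fewer values then have to be separate. By limma, 0 of 4582 domains (0%) passed the adjusted threshold, with 11 higher and 36 lower at an unadjusted p under 0.05. Without siPHF13+TGFβ replicate 2, which leaves replicate 1 alone in its group and assumes that it varies like the others, limma called 30 domains higher and 438 lower. The lower domains with the smallest p lay beside OR13H1 on chromosome X (4849 and 8643 bp in siControl, 1079 and 3716 bp in siPHF13+TGFβ), SLC13A2 on chromosome 17 (6209 and 10972 bp, 1385 and 4927 bp) and NCBP2L on chromosome X (7931 and 13313 bp, 1626 and 6858 bp). In each of them both siPHF13+TGFβ values were below both siControl values. The domain higher with the smallest p held GSTA5, a glutathione transferase, with 2478 and 7964 bp in siControl and 3209 and 9909 bp in siPHF13+TGFβ cells, a fitted difference of 0.99 ± 0.32 (SE) on the log2 scale. It was followed by domains nearest to FBXO15 and PPIAL4C, the latter a gene with near-identical copies.

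At the scale of 1 Mb bins, 0 of 1832 (0%) passed the adjusted threshold, with 0 higher and 15 lower at an unadjusted p under 0.05, and 1 was lower without siPHF13+TGFβ replicate 2. The bin with RGCC, VWA8, DGKH and AKAP11 on chromosome 13 was covered over 10807 and 45464 bp in siControl, 805 and 12222 bp in siPHF13+TGFβ, and 8716 and 15969 bp in siControl+TGFβ cells. The bin of PIK3R1, the regulatory subunit of PI3-kinase, on chromosome 5 had 13764 and 49041 bp in siControl and 1852 and 15089 bp in siPHF13+TGFβ cells, and the bin of ABCC12, LONP2, ABCC11, SIAH1 and N4BP1 on chromosome 16 had 3732 and 41959 bp against 0 and 4383 bp. The last bin of chromosome 16, with DEF8, DBNDD1, GAS8 and PRDM7, had the smallest p of the higher bins, with 29152 and 82008 bp in siControl and 26771 and 68266 bp in siPHF13+TGFβ cells. Its covered length was thus lower in siPHF13+TGFβ in absolute terms and higher only relative to the median bin of each library. The same held for the bin of PTHLH and CCDC91 on chromosome 12, at 9881 and 31605 bp against 8726 and 25667 bp.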

How the data were processed

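H3K27me3 was profiled by ChIP-seq in PANC-1 cells, with 2 libraries for each of siControl, siControl+TGFβ and siPHF13+TGFβ. Per the methods of the study and the submitters' processing notes, the authors trimmed reads with Trim Galore 0.4.1, aligned them to hg19 with Bowtie2 2.4.1, removed duplicates with Picard and called broad peaks against input with MACS2 2.2.7.1, separately in each library. The authors' peak caller wrote 4 deposited values per peak: its score, its fold enrichment as a ratio over control, its −log10 p-value and its −log10 q-value. The deposited −log10 q ranked the peaks for lists of equal length. The lists hold no read counts. A deeper or better enriched library yields more and wider peaks, so covered length depends on both library and chromatin. For siControl replicate 1 and siPHF13+TGFβ replicate 1 the deposited lists, used here, are shorter than the peak numbers stated in the study.

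Peaks were merged within and across lists wherever they touched. Genes were those of GENCODE 44 lifted to GRCh37, with the TSS of the canonical transcript, on chromosomes 1 to 22 and X, and no peak on these 23 ran past the end of its GRCh37 chromosome. PECAM1 and UTY had no promoter in this set, and FAM129A was read as NIBAN1. Covered length was fitted with limma 3.58.1 in R 4.3.3 as log2(bp + 100), or log2(bp + 1000) for bins with a mean of at least 10000 bp, with 3 groups in a fit, no replicate block and Benjamini-Hochberg adjustment. Single values were compared by exact permutation over the 4 libraries. The gain and loss counts of mixed pairs are the other arrangements of that test. Interval code was checked against a count per base, and the limma step was tested on simulated data.

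Named genes were the lost and gained promoters under full and equal-length lists (up to 10 each, by the smaller covered length in the group with the peak), the 3 promoters, domains and bins per direction with the smallest p, members of each gene list that were lost or gained and its 2 most covered members, PHF13, EZH2, PCDHB8 and PAPLN. Of the genes this rule names, 2 are not reported here. The members and lists were chosen with earlier results of these data known. The closing section gives the effect of other list lengths, thresholds, windows, pseudocounts and left-out libraries.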

Additional observations from a re-analysis of the deposited data

How the results depend on the processing

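With all 4 deposited lists and the filter on low coverage, limma called 0 promoters, domains or bins, and the exact permutation tests of covered length could not go below 0.333. Genome covered differed by 0.107 on the log2 scale without siPHF13+TGFβ replicate 1 and by -1.85 without siPHF13+TGFβ replicate 2, and by 9.09e-05 with lists of equal covered length, where it is equal by construction. The difference in marked promoters, -1280.5, ran from -2300 to -261 with a library left out. It was 510 with lists of equal covered length, which keep all peaks of siPHF13+TGFβ replicate 1. Merged regions gained and lost were 293 and 4159 with at least 500 bp covered, 1670 and 2512 with lists of equal length, 972 and 238 with lists of equal covered length and 7 and 177 at a −log10 q of at least 3, and 765 to 17914 and 7927 to 88651 with a library left out. Coding promoters gained and lost were 71 and 155 with lists of equal length, 128 and 33 with lists of equal covered length and 2 and 37 at a −log10 q of at least 3, 3 gained with 1 kb windows, and 16 to 192 and 268 to 1411 with a library left out. Over all gene list members, 0 gained became 3 with lists of equal length and 6 with lists of equal covered length, 9 lost members of 886 (1.02%, against 1.19% of all coding promoters) became 3 with lists of equal covered length and 4 at a −log10 q of at least 3, and with a library left out 0 to 13 were gained and 11 to 85 lost. Domains higher ran from 1090 to 1869 and lower from 964 to 1861 with a library left out.

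limma called 18 promoters higher and 1 lower with lists of equal covered length, which keep siPHF13+TGFβ replicate 1 whole. It called 18 lower without the filter, where most variances are 0 and the fit is unreliable. With a library left out it called 0 promoters, 0 to 30 domains higher and 0 to 438 lower, and 0 bins higher and 0 to 1 lower. The difference of the domain nearest to PPIAL4C turned to -1.64 with lists of equal covered length and -0.21 at a −log10 q of at least 3, and without centring the 3 higher bins turned to -0.19 (DEF8), -0.23 (PTHLH) and -0.22 (HAND2). The cause was not tested. The domain counts had no value at equal covered length or at a −log10 q of at least 3, where a library's median domain holds no peak.

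The replicate numbers were not treated as pairs: same-numbered libraries deviated together with correlations of -0.051, 0.27 and -0.007, over 2 numbers. In all 3 groups, however, replicate 1 covered less of the genome than replicate 2. Genome covered differed by -1.11 between the compared libraries numbered 1 and by -0.63 between those numbered 2. With the replicate block the difference was -0.87 (exact permutation over sign changes, p = 0.5, the smallest it can give). limma with this block called 0 promoters, domains and bins, with 40 promoters higher and 129 lower at an unadjusted p under 0.05.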

Other observations

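Promoters of leukocyte, acinar and islet markers, which had no H3K4me3 peak in any library, differed in whether they carried H3K27me3. CD3E, a T cell gene, was covered over 2926 and 3844 bp in siControl and 1814 and 3030 bp in siPHF13+TGFβ cells, and PRSS1, which encodes trypsinogen, over 3647 and 5001 bp and 2372 and 5001 bp. INS, the insulin gene, had 906 and 5001 bp in siControl and 1521 and 2598 bp in siPHF13+TGFβ cells. PTPRC had 0 bp in all 6 lists, and GCG and CPA1 had a peak in siControl replicate 2 only, over 1933 and 171 bp.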
